A study of Mus musculus with 1528 samples.

Results

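The cells described here were TNF-treated macrophages in which no transcript of *Tnfrsf1a*, the gene of TNF receptor 1 (TNFR1), was sequenced. Of 756 wells of bone marrow-derived macrophages (BMDMs) stimulated with IL4+IL13+TNF, 718 held at least 200000 fragments assigned to genes, at least 5000 genes and at most 10% of fragments from the mitochondrial genome. Of these 718 kept cells, 120 had 0 *Tnfrsf1a* fragments and are called *Tnfrsf1a*-zero cells. They were chosen by this count, so the receptor's own level in them is a description and was not tested. The comparators, called *Tnfrsf1a*-high cells, were 120 of the 398 kept TNF-treated cells with at least 50 CPM of *Tnfrsf1a*, each paired with 1 *Tnfrsf1a*-zero cell of its own plate at the closest depth. CPM gives a gene's fragments as a share of all gene fragments of the cell or sum. The other 200 kept TNF-treated cells, above 0 and under 50 CPM, entered neither set.

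The study asked how TNF changes the program that IL4 and IL13 set up in macrophages, the state named M2. BMDMs of wild-type C57BL/6 mice, grown with M-CSF (CSF1), received IL4+IL13 for 24 h, alone or together with TNF, each cytokine at 10 ng/ml, so every group carried IL4+IL13. Live cells were sorted singly into 384-well plates and sequenced as full-length cDNA without molecular identifiers. In all, 1524 wells carried a number 1 or 2 in their title, which is taken here as the mouse. The paper speaks of 2 independent experiments. Mouse 1 filled plates 2 and 3 and mouse 2 filled plates 4 and 5, with both treatments on every plate. Within each plate the IL4+IL13 cells lay in rows A to H and the TNF cells in rows I to P, so an effect of plate position and an effect of TNF cannot be told apart. Comparisons of *Tnfrsf1a*-zero with *Tnfrsf1a*-high cells lie within 1 treatment and 1 block of rows and do not cross that border.

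TNF binds a pair of receptors. TNFR1 is found on most cells and carries a death domain that recruits TRADD, RIPK1 and TRAF2, from which signals reach the kinases that free NF-κB and that act on AP-1; TNFR2, encoded by *Tnfrsf1b*, lacks a death domain, binds TRAF2 directly and is abundant on immune cells. A transcript missing from a cell's sequencing does not mean that the protein is missing from its surface, since receptors outlive the messages that made them and few molecules of a message are captured from 1 cell.

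The *Tnfrsf1a*-zero cells came from both mice and all 4 plates. Mouse 1 gave 52 and mouse 2 gave 68, and plates 2, 3, 4 and 5 gave 20, 32, 43 and 25. They made up 16.7% of the kept TNF-treated cells (exact Clopper-Pearson 95% interval 14.1% to 19.7%), with 14.3% in mouse 1 and 19.2% in mouse 2. In cells given IL4+IL13 alone, 78 of 721 kept cells lacked the transcript, or 10.8% (8.65% to 13.3%), with 8.01% in mouse 1 and 13.7% in mouse 2. Intervals here cover counting error only. With every cell thinned to 200000 fragments the shares were 21.5% with TNF and 16.9% without, and with thinning to 400000 fragments, which left 514 and 557 cells, they were 17.7% and 14%. At the deposited depth the share was higher with TNF on each of the 4 plates, and at 200000 fragments on plates 2, 3 and 4, with 20% against 20.1% on plate 5. At 400000 fragments it was higher with TNF on plates 3, 4 and 5 and lower on plate 2, at 7.84% against 10.64%. An exact permutation test of 2 against 2 unpaired values cannot give a two-sided p below 0.333, and the same mice carried both treatments. The shares by mouse lay above those without TNF at the deposited depth but overlapped at 200000 fragments (17.9% and 25.1% against 11.6% and 22.3%). Within each mouse the share was higher with TNF at both of these depths. At 400000 fragments it was higher within each mouse too, at 13.94% and 21.29% against 10.32% and 17.75%.

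**Figure D1:**
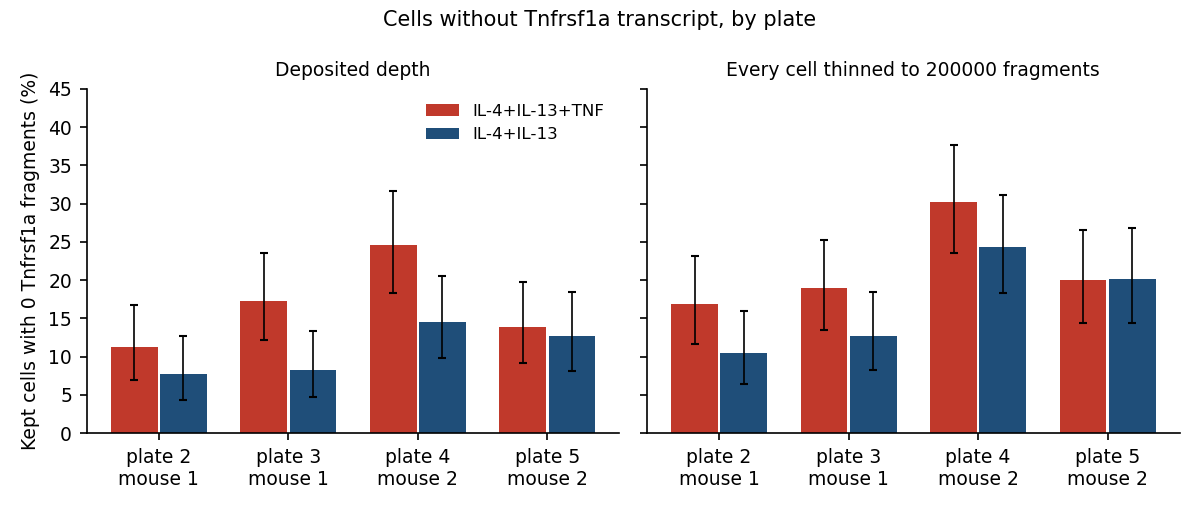
Share of kept cells with 0 *Tnfrsf1a* fragments (y axis, percent) on each plate (x axis), at the deposited depth (left) and with every cell thinned to 200000 fragments (right). Bars are shares, lines are exact 95% Clopper-Pearson intervals, red is IL4+IL13+TNF and blue is IL4+IL13; plate 4 had the highest share of TNF-treated cells without the transcript at both depths, 24.6% and 30.3%, and at 200000 fragments the bars of plate 5 stood at 20% and 20.1%.

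A count of 0 did not have the same weight in every cell. At each cell's depth it allows up to 1.12 to 15 CPM of *Tnfrsf1a* in the sequenced library, with a median limit of 6.4 CPM. The limit takes 3 fragments as the most that a count of 0 allows. It treats fragments as independent, although there were no molecular identifiers, and does not cover transcripts lost at capture. The *Tnfrsf1a*-high cells held 50.9 to 490 CPM, with a median of 103 CPM, so the sets were apart on the receptor by construction. Just outside the rule lay 44 kept TNF-treated cells with exactly 1 fragment, at 0.279 to 4.76 CPM, and 18 with 2 fragments, at 2.69 to 6.79 CPM. The *Clec4e* level of the summed fragments was 1000 CPM in the cells with 1 fragment and 181 CPM in those with 2, and *Sod2* stood at 566 and 415 CPM. The cells at the edge of the rule therefore did not all sit at the low levels of the *Tnfrsf1a*-zero cells given further on.

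Depth was matched, but the number of genes was not. The median depth was 468911 fragments in *Tnfrsf1a*-zero cells and 471086 in *Tnfrsf1a*-high cells, and the median pair differed by 0.00755 on the log2 scale. A pair of *Tnfrsf1a*-zero cells, with 2673602 and 2519307 fragments, had no partner of that depth, since the deepest *Tnfrsf1a*-high cell had 1161048. At a common 200000 fragments the *Tnfrsf1a*-zero cells held a median of 6518 genes and the *Tnfrsf1a*-high cells 7006, and the spike-in RNA took 0.0544% and 0.0473% of fragments. Whether fewer genes per cell had a part in any difference described here was not tested, and values matched on the number of genes are given beside the main results.

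Transcripts of other receptors of the family were found in the *Tnfrsf1a*-zero cells. *Tnfrsf1b* stood at 239 CPM in mouse 1 and 292 CPM in mouse 2 in the *Tnfrsf1a*-zero cells, against 198 and 318 CPM in the *Tnfrsf1a*-high cells. The groups overlapped, and the log2 difference (zero minus high) was 0.04 (SE 0.39). *Ltbr*, the lymphotoxin β receptor, stood at 26.3 and 24 CPM against 25.3 and 25.3 CPM, a log2 difference of -0.01 (SE 0.50). These standard errors leave room for differences in either direction. No *Tnfrsf1b* fragment was found in 4 of 120 *Tnfrsf1a*-zero cells and in 5 of 120 *Tnfrsf1a*-high cells. The 4 cells without either receptor transcript held 10.1, 0, 1.65 and 2190 CPM of *Clec4e*, so 1 of them was far above the rest.

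No gene passed the test between *Tnfrsf1a*-zero and *Tnfrsf1a*-high cells. Fragments were summed over the cells of each set in each mouse, which makes the mouse the replicate (n = 2). The quasi-likelihood test of edgeR, adjusted by Benjamini-Hochberg, called 0 of 16579 genes (0% of those tested) at an adjusted p under 0.05. At an unadjusted p under 0.05 lay 411 genes, or 2.48% of those tested. DESeq2 on the same sums called 32. The mice pair the sums, since both sets come from the same animals, and with the mouse as a block edgeR called 2 genes, *Ccr7* and *Aldh1a2*, which belong to a few cells described further on. The same contrast in IL4+IL13 cells called 0 genes (0%), with 826 (4.98%) at an unadjusted p under 0.05 and 117 by DESeq2. On counts simulated for these sets with 1 dispersion for all genes (0.127), edgeR recovered 0 of 100 genes changed 2-fold. Of 100 genes changed 4-fold it recovered 43, so 0 calls do not show that the sets were alike. That dispersion was estimated from genes with many fragments in the sums, and changes were planted only in such genes. Recovery of sparser or noisier genes was not simulated. With 0 calls, the description that follows rests on levels by mouse and by plate, and each difference is given as not past the threshold unless stated otherwise.

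*Clec4e* and *Sod2* were lower in *Tnfrsf1a*-zero cells in both mice and on all 4 plates, and both were singled out with earlier results of these data known. *Clec4e* encodes Mincle, a C-type lectin that senses mycobacterial glycolipid and dying cells and is induced by inflammatory signals. It lies on chromosome 6 (mm10, 123281789 to 123289870, minus strand). Its level in *Tnfrsf1a*-zero cells was 227 CPM in mouse 1 and 301 CPM in mouse 2 (264 ± 52.6, SD, n = 2), against 772 and 1040 CPM in *Tnfrsf1a*-high cells (904 ± 187, n = 2). On plates 2, 3, 4 and 5 it was 86.5, 279, 187 and 511 CPM against 647, 797, 833 and 1350 CPM. Every plate of the *Tnfrsf1a*-zero cells was below every plate of the *Tnfrsf1a*-high cells. The log2 difference was -1.78 (SE 0.80), with an unadjusted p of 0.0637 and an adjusted p of 1 (edgeR), and with the mouse as a block the unadjusted p was 0.0218 and the adjusted p again 1. The difference was -1.54 (SE 0.85) when pairs were matched on the number of genes as well.

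*Sod2* encodes the manganese superoxide dismutase of mitochondria, a classical NF-κB target, on chromosome 17 (mm10, 13006846 to 13040063, plus strand). *Tnfrsf1a*-zero cells held 379 and 275 CPM in mouse 1 and mouse 2 (327 ± 73.1, n = 2), and *Tnfrsf1a*-high cells 695 and 563 CPM (629 ± 93.4, n = 2). By plate it was 252, 420, 266 and 284 CPM against 616, 701, 536 and 579 CPM, again with no overlap. The log2 difference was -0.94 (SE 0.29), with an unadjusted p of 0.0161 and an adjusted p of 1 (edgeR). Matching on the number of genes gave -0.83 (SE 0.30).

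Over all kept TNF-treated cells the relation with *Tnfrsf1a* was weak. Within mouse 1 (363 cells) and mouse 2 (355 cells), Spearman's rho of *Tnfrsf1a* across cells was 0.08 and 0.19 with *Clec4e*, 0.17 and 0.25 with *Sod2*, and 0.17 and 0.13 with the number of genes found. Both values of a cell come from 1 library and share its depth, and these correlations are descriptions.

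The same split by the receptor transcript was made in cells that were given no TNF. In IL4+IL13 cells *Clec4e* stood at 5.06 and 32.1 CPM without and 10.3 and 25.6 CPM with *Tnfrsf1a*, a log2 difference of 0.06 (SE 0.79). *Sod2* stood at 107 and 175 CPM without and 135 and 112 CPM with the receptor transcript, a log2 difference of 0.19 (SE 0.29). Both pairs of groups overlapped. The difference of the differences (the interaction of TNF with the *Tnfrsf1a* class) was -1.83 (SE 1.12, unadjusted p 0.147) for *Clec4e* and -1.13 (SE 0.41, unadjusted p 0.0308) for *Sod2*, each with an adjusted p of 1 (edgeR). Over all genes the interaction called 0 of 16579 (0%), with 647 (3.9%) at an unadjusted p under 0.05 and 41 by DESeq2.

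**Figure D2:**
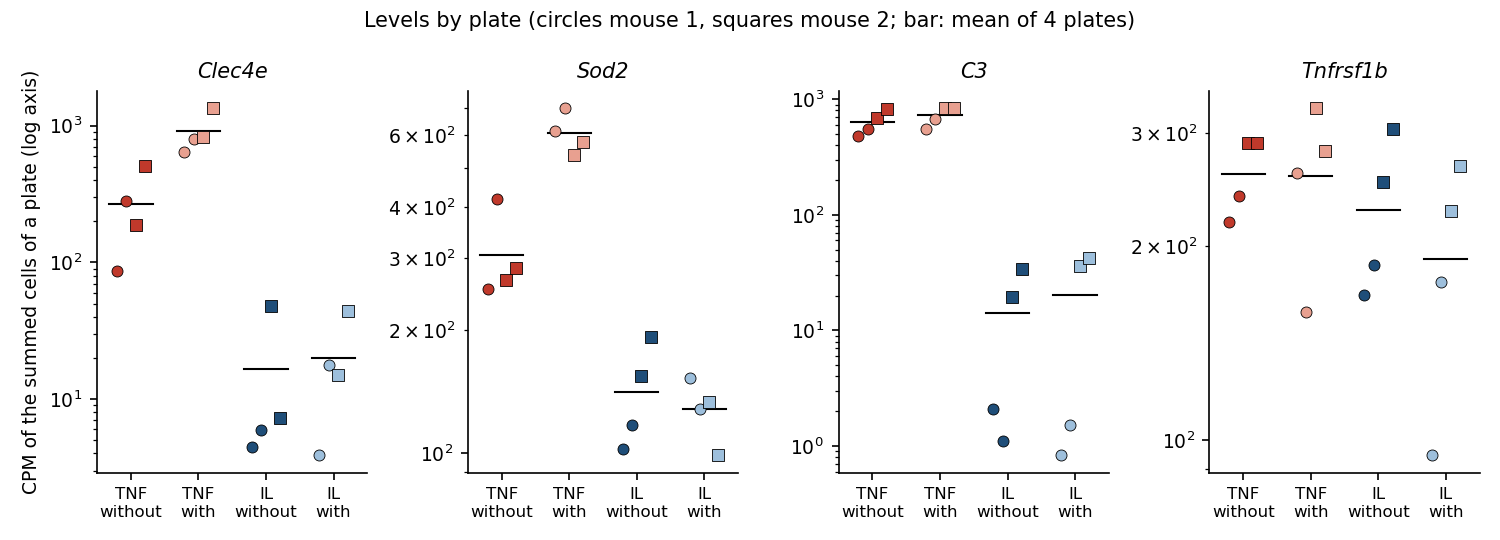
CPM of the summed cells of each plate (y axis, log scale) for *Clec4e*, *Sod2*, *C3* and *Tnfrsf1b* in the 4 cell sets (x axis), where without and with stand for *Tnfrsf1a*-zero and matched *Tnfrsf1a*-high cells; circles are plates of mouse 1, squares plates of mouse 2 and bars the mean of 4 plates. For *Clec4e* and *Sod2* the TNF-treated points of both sets do not overlap, while for *C3* and *Tnfrsf1b* they do.

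The 250 bases before and 50 after the start of these genes are shown, with that of *Tnfaip3*, because the genes are known targets of the pathway that runs from TNFR1 to NF-κB. The sequences are those of RefSeq (GRCm38.p6), 5′ to 3′ on the gene's strand, at chr6:123289822-123290121 (minus strand) for *Clec4e*, chr17:13007589-13007888 (plus strand) for *Sod2* and chr10:19015361-19015660 (minus strand) for the first of the listed starts of *Tnfaip3*. Capitals mark matches to the κB motif or to the AP-1 motif TGANTCA on either strand.
Clec4e: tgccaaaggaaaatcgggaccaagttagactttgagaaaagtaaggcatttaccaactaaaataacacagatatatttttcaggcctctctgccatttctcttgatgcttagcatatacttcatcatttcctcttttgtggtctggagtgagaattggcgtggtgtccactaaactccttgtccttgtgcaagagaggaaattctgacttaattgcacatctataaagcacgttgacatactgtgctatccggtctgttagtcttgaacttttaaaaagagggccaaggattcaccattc
Sod2: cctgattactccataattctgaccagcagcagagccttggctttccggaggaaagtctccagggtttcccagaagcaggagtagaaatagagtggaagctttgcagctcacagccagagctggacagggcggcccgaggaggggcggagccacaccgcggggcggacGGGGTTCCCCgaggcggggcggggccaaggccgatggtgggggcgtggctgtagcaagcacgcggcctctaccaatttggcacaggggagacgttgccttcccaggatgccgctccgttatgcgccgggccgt
Tnfaip3: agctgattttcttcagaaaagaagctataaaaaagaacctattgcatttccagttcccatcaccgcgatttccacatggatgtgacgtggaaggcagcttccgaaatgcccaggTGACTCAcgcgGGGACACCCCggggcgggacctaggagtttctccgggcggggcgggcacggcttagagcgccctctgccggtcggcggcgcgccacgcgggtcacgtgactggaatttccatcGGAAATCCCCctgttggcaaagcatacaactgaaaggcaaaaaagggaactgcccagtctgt
The window of *Sod2* held a κB match 83 bases before the RefSeq start. That start lies inside the mm10 interval given above for *Sod2*, and so does the match. The window of *Tnfaip3* held κB matches 125 and 12 bases before its RefSeq start and an AP-1 match 136 bases before it. That of *Clec4e* held neither motif. Among 32851 promoter windows of this length, 8.46% held the κB motif and 7.81% the AP-1 motif. A match describes letters and is not shown to be a bound site, and the lack of one speaks only of this window.

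Cell by cell, the *Tnfrsf1a*-zero cells were not uniformly low. *Clec4e* was found in 89.2% of them and in 95.8% of the *Tnfrsf1a*-high cells. Their median was 32.3 CPM with quartiles at 3.28 and 257 CPM, against a median of 353 CPM with quartiles at 13.8 and 1050 CPM. By mouse the medians were 75.8 and 21.5 CPM against 376 and 334 CPM, and by plate 5.23, 197, 11.8 and 61.1 CPM against 545, 370, 198 and 348 CPM, so that plate 3 of the *Tnfrsf1a*-zero cells came within 1 CPM of plate 4 of the others. Without 8 *Ccr7*-high cells described further on, the median of the *Tnfrsf1a*-zero cells was 57.6 CPM. The highest *Tnfrsf1a*-zero cell held 4780 CPM and the highest *Tnfrsf1a*-high cell 5720 CPM. Of all *Clec4e* fragments of the 120 *Tnfrsf1a*-zero cells, 46.0% came from 5 cells. Taking the 99th percentile of IL4+IL13 cells, 406 CPM, as a mark, 20 of 120 *Tnfrsf1a*-zero cells lay above it (16.7%, 10.5% to 24.6%) and 55 of 120 *Tnfrsf1a*-high cells (45.8%, 36.7% to 55.2%). Cells of 1 mouse are not replicates, so these intervals describe counting error in these cells.

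*Sod2* differed between the sets through the bulk of the cells. Its median was 266 CPM in *Tnfrsf1a*-zero and 504 CPM in *Tnfrsf1a*-high cells, and the quartiles were 108 and 448 CPM against 307 and 801 CPM. Above the 99th percentile of IL4+IL13 cells, 550 CPM, lay 19 of 120 against 57 of 120. The 5 highest cells gave 19.2% of the *Tnfrsf1a*-zero cells' fragments, a smaller part than for *Clec4e*.

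The TNF-raised list holds 50 genes that were at least 2-fold higher with TNF in both mice in the cells above 0 and under 50 CPM of *Tnfrsf1a*, which belong to neither set. In *Tnfrsf1a*-zero cells 49 of the 50 had a fitted TNF effect above 0, the exception being *Ahrr*, the repressor of the aryl hydrocarbon receptor (-0.66, SE 1.23), which was named after its values were seen. The median log2 TNF effect (TNF minus IL4+IL13) over the list was 2.56 in *Tnfrsf1a*-zero cells and 2.86 in *Tnfrsf1a*-high cells, against 0.00 and -0.01 over all genes tested. In *Tnfrsf1a*-zero cells 40 of the 50 were at least 2-fold higher with TNF in both mice, where 3.66% of all genes were, and in *Tnfrsf1a*-high cells 44 of 50, where 3.62% of all genes were. The list was drawn from other cells of the same mice and plates, so its direction is not independent evidence of a response to TNF. As single genes none was called in either effect (0 of 16579, 0%, in each). An unadjusted p under 0.05 (edgeR) was found for 1276 genes (7.7%) and 1236 genes (7.46%). DESeq2 called 378 and 357, and edgeR with the mouse as a block called 2 for *Tnfrsf1a*-zero cells.

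Set directly against *Tnfrsf1a*-high cells, the TNF-raised genes had a small median difference, which was larger without the *Ccr7*-high cells described further on. Over the list the median log2 difference (zero minus high) was -0.15, against 0.01 over all genes. Of the 50 genes, 29 were lower (58%), beside 48.4% of all genes. The list's median moved between -0.47 and -0.02 over the alternatives and was -0.09 when pairs were matched on the number of genes. The -0.47 came without the *Ccr7*-high cells and with the mouse as a block. On all 4 plates 12 of the 50 were lower, beside 6.41% of all genes, and 4 were higher, beside 8.06% of all genes; with plates of 1 mouse sharing an animal these are counts and not a test. The 12 were *Clec4e*, *Sod2*, *Saa3*, *C3*, *Cdc42ep2*, *Lpcat2*, *Icam1*, *Pla2g7*, *Ets2*, *Nfkbie*, *Aif1* and *Nfkbia*. In IL4+IL13 cells the list's median difference between the same classes was 0.19. There 2 of the 50 were lower on all 4 plates, beside 7.17% of all genes, and 4 were higher, beside 4.93% of all genes.

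Several of the 12 encode parts of the inflammatory response. *Saa3*, an acute-phase serum amyloid, stood at 34.6 and 24.5 CPM in *Tnfrsf1a*-zero cells of mouse 1 and mouse 2 against 103 and 159 CPM, a log2 difference of -2.15 (SE 1.30, unadjusted p 0.143). *Icam1*, an adhesion molecule for leukocytes, stood at 108 and 87.9 CPM against 165 and 115 CPM, a difference of -0.51 (SE 0.37, unadjusted p 0.213). For both genes the 2 mice of one set lay below the 2 mice of the other. *Nfkbia*, the inhibitor IκBα and an early NF-κB target, stood at 464 and 300 CPM against 535 and 394 CPM, with overlap (-0.28, SE 0.39). *C3*, the central complement component, stood at 542 and 742 CPM against 657 and 859 CPM, also with overlap (-0.24, SE 1.43). Within each mouse *Nfkbia* and *C3* were lower in the *Tnfrsf1a*-zero cells.

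*C3* differed between treatments about as much in both classes. In IL4+IL13 cells without the receptor transcript it stood at 1.55 and 26.0 CPM, and the TNF effect was 5.52 on the log2 scale (SE 1.74) in *Tnfrsf1a*-zero cells and 5.31 (SE 1.72) in *Tnfrsf1a*-high cells. The TNF effect on *Clec4e* was 3.82 (SE 0.87) and 5.65 (SE 0.95), and that on *Sod2* 1.21 (SE 0.30) and 2.35 (SE 0.31). *H2-M2*, a class I-like gene of the major histocompatibility complex, stood at 147 and 116 CPM in *Tnfrsf1a*-zero and 97.0 and 102 CPM in *Tnfrsf1a*-high cells, and *Acod1*, which makes itaconate, at 114 and 138 against 134 and 312 CPM. Thus in the sums *H2-M2* was higher and *Acod1* lower in both mice, by 0.40 (SE 0.78) and -0.83 (SE 1.28) on the log2 scale. The *H2-M2* order rested on few cells, since 5 cells held 59.5% of its fragments in *Tnfrsf1a*-zero and 47.7% in *Tnfrsf1a*-high cells. Its median was 0 CPM in both sets, and 32 against 37 of 120 cells lay above the 99th percentile of IL4+IL13 cells. On plate 2 the highest *Tnfrsf1a*-zero cell held 2680 CPM, and 125 CPM without the *Ccr7*-high cells described further on.

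**Figure D3:**
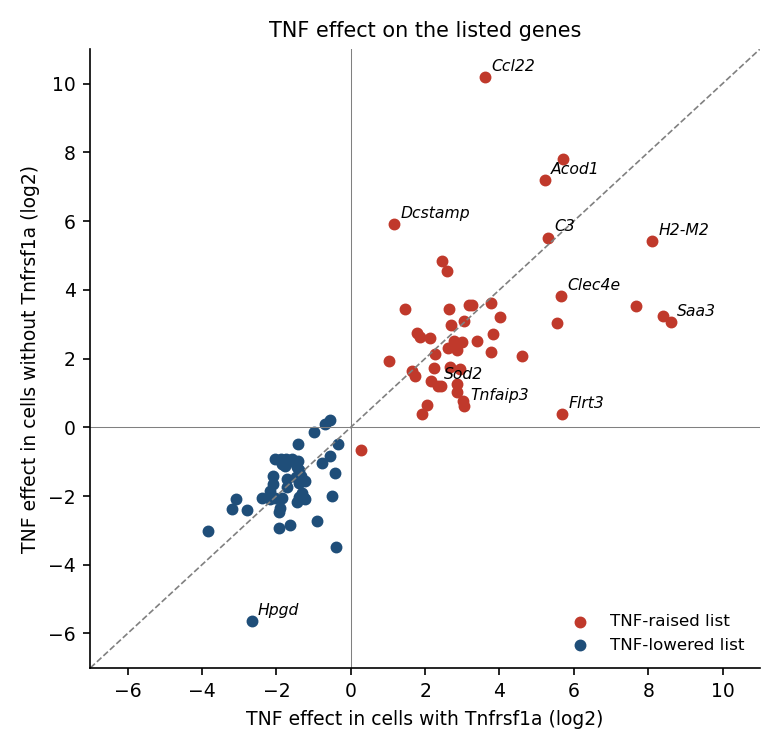
Log2 effect of TNF (TNF minus IL4+IL13, from edgeR on sums per mouse) on the TNF-raised (red) and TNF-lowered (blue) genes in *Tnfrsf1a*-high cells (x axis) and in *Tnfrsf1a*-zero cells (y axis); the dashed line marks equal effects. Of the 50 TNF-raised genes 33 lie below the line, among them *Clec4e* (5.65 and 3.82) and *Sod2* (2.35 and 1.21), while *C3* (5.31 and 5.52) lies close to it.

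The feedback gene *Tnfaip3*, whose product A20 removes ubiquitin chains from the TNFR1 complex, differed by mouse in opposite directions with and without TNF. It stood at 43.7 and 40.1 CPM in *Tnfrsf1a*-zero and 58.3 and 84.6 CPM in *Tnfrsf1a*-high TNF-treated cells, a log2 difference of -0.77 (SE 0.55). Plates were mixed there, with 45.8 against 44.7 CPM on plate 2. In each set 4 of 120 cells lay above the 99th percentile of IL4+IL13 cells, 264 CPM. In IL4+IL13 cells *Tnfaip3* stood at 29.3 and 25.1 CPM without and 3.79 and 13.3 CPM with the receptor transcript, a difference of 1.66 (SE 0.56). The interaction was -2.43 (SE 0.78, unadjusted p 0.0186, adjusted p 1, edgeR). In the IL4+IL13 cells without the transcript, 5 of 78 cells held 73.0% of its fragments, and with the transcript 5 of 78 held 95.9%.

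Other targets were too sparse or too uneven to order. *Ccl5* stood at 21.2 and 77.2 CPM against 7.87 and 63.3 CPM (log2 difference 0.47, SE 1.57), and *Tnf* itself at 32.5 and 2.39 CPM against 39.2 and 3.69 CPM (-0.30, SE 1.33). *Cxcl10* was found in 8.3% of *Tnfrsf1a*-zero and 6.7% of *Tnfrsf1a*-high cells, with a log2 difference of -3.68 (SE 1.69). It stood at 2.93 and 0.144 CPM against 34.4 and 4.81 CPM, the highest *Tnfrsf1a*-high cell held 1070 CPM in mouse 1 and 406 CPM in mouse 2, and 5 *Tnfrsf1a*-high cells held 99.7% of that set's fragments. *Il1b* had no fragment in mouse 1 in either set, nor in the IL4+IL13 sums of that mouse. Over the whole list of 40 inflammatory targets, of which *Lcn2* and *Csf3* were too low to test, the median difference of the 38 tested was -0.02, with 8 lower and 4 higher on all 4 plates beside 6.41% and 8.06% of all genes.

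Sums cannot tell fewer cells with a transcript from less of it per cell, so the list was also counted in single cells. With each cell thinned to 200000 fragments, a *Tnfrsf1a*-zero cell held 9 to 37 of the 50 TNF-raised genes with a median of 25.5, a *Tnfrsf1a*-high cell 16 to 40 with a median of 29.0, and IL4+IL13 cells a median of 12 in both classes. By mouse the medians were 26.0 and 25 in *Tnfrsf1a*-zero and 29.5 and 28 in *Tnfrsf1a*-high cells. Every plate of the *Tnfrsf1a*-zero cells, from 25 to 27.0, was at or below every plate of the *Tnfrsf1a*-high cells, from 27.0 to 30.0. Of the *Tnfrsf1a*-zero cells 80 of 120 (66.7%, 57.5% to 75%) held more than 23 genes, the 99th percentile of IL4+IL13 cells, and of the *Tnfrsf1a*-high cells 103 of 120 (85.8%, 78.3% to 91.5%). All genes were also fewer in *Tnfrsf1a*-zero cells at this depth, 6518 against 7006, and its part in these counts was not tested.

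**Figure D4:**
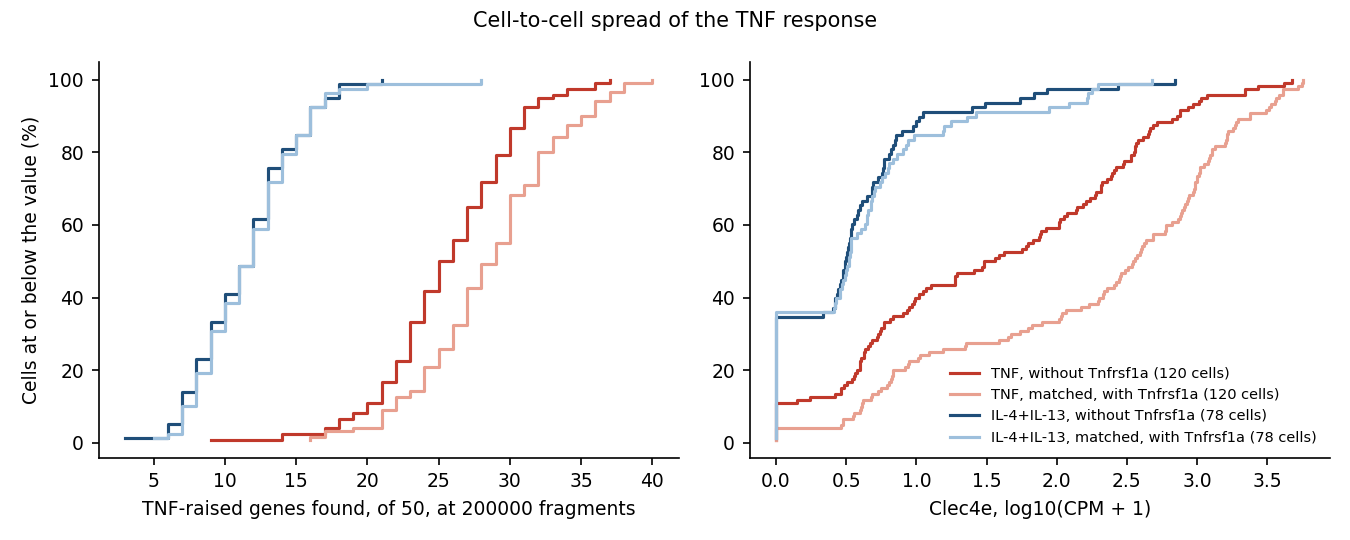
Cumulative share of cells (y axis, percent) against the number of the 50 TNF-raised genes found at 200000 fragments (left) and against *Clec4e* as log10(CPM + 1) (right), for the 120 *Tnfrsf1a*-zero, 120 *Tnfrsf1a*-high, 78 IL4+IL13 cells without and 78 matched IL4+IL13 cells with the receptor transcript. The *Tnfrsf1a*-zero curve lies between the *Tnfrsf1a*-high curve and the IL4+IL13 curves, with medians of 25.5, 29.0 and 12 genes.

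No M2 gene passed the test between the sets. The M2 list of 28 genes includes genes that the study chose as a signature on these samples, so it is not independent evidence of a direction. Its median log2 difference (zero minus high) was 0.17, with 11 lower (39.3%, beside 48.4% of all genes) and 17 higher. On all 4 plates 2 were lower and 5 higher, beside 6.41% and 8.06% of all genes. *Mrc1*, the mannose receptor, stood at 658 and 815 CPM against 606 and 862 CPM (0.01, SE 0.24). *Mgl2*, a galactose-type lectin, stood at 421 and 518 CPM against 373 and 460 CPM (0.17, SE 0.20), and its relative *Clec10a* at 74.8 and 100 CPM against 97.9 and 116 CPM (-0.29, SE 0.24). *Mrc1* and *Mgl2* overlapped between the sets and so did *Clec10a*. Within each mouse *Mgl2* was higher and *Clec10a* lower in the *Tnfrsf1a*-zero cells, while *Mrc1* was mixed.

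The TNF effect on these lectins was downward in both classes. It was -2.18 (SE 0.25) for *Clec10a* in *Tnfrsf1a*-zero cells and -1.58 (SE 0.25) in *Tnfrsf1a*-high cells, and the interaction was -0.60 (SE 0.35, unadjusted p 0.128). For *Mrc1* it was -0.88 (SE 0.25) and -0.89 (SE 0.25), and for *Mgl2* -0.50 (SE 0.20) and -0.56 (SE 0.20). None was past the threshold. *Retnla*, which encodes RELMα, stood at 32.5 and 22.6 CPM in *Tnfrsf1a*-zero and 0.350 and 16.3 CPM in *Tnfrsf1a*-high cells. The log2 difference (zero minus high) was 1.71, with an SE of 2.55 that leaves room for either direction. The mice did not overlap between the sets, but plates were mixed, with 7.44 against 29.3 CPM on plate 5. In IL4+IL13 cells without the receptor transcript it stood at 0.472 and 763 CPM, so its levels were uneven between mice.

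Other M2 genes were as uneven. *Arg1*, the arginase of M2 macrophages, stood at 206 and 400 CPM against 32.8 and 352 CPM (0.66, SE 0.91), *Apoe* at 21.1 and 85.8 CPM against 65.0 and 67.4 CPM (-0.31, SE 0.80) and *Chil3* at 0 and 2.85 CPM against 15.9 and 5.29 CPM (-2.88, SE 2.90). *Il10* reached at most 1.69 CPM in any of these TNF-treated sums (-0.30, SE 2.10). *Pparg*, a nuclear receptor of the M2 program, stood at 62.4 and 60.5 CPM against 40.4 and 42.4 CPM (0.57, SE 0.21, unadjusted p 0.0298), and it was higher without the receptor transcript in IL4+IL13 cells as well (114 and 98.6 against 68.7 and 57.9 CPM). *Pparg* was named after its values were seen.

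The 50 TNF-lowered genes, drawn like the TNF-raised ones, were mostly lower with TNF in both sets. Their median TNF effect was -1.69 in *Tnfrsf1a*-zero and -1.54 in *Tnfrsf1a*-high cells, and 29 and 32 of 50 were at least 2-fold lower with TNF in both mice, beside 2.55% and 2.89% of all genes. The median difference between the sets was 0.13, with 4 lower and 4 higher on all 4 plates (8% each), beside 6.41% and 8.06% of all genes, shares near the background. Of the first 5 by the list's order, *Hpgd*, which degrades prostaglandins, stood at 1.44 and 0.144 CPM in *Tnfrsf1a*-zero against 2.14 and 7.37 CPM in *Tnfrsf1a*-high cells (-2.62, SE 1.12, unadjusted p 0.0534), and *Xylt1* (-0.10, SE 0.61), *Hmga2* (0.75, SE 0.54), *Lifr* (0.66, SE 0.85) and *Apoe* differed by less than 1.5 times their standard error.

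The machinery that carries the signal from the receptors to the nucleus was expressed in *Tnfrsf1a*-zero cells. Of 34 signalling genes, none passed the test in either direction. There were 11 lower (32.4%, beside 48.4% of all genes) and 23 higher, and the median log2 difference was 0.13. *Tradd*, the adaptor of the death domain, stood at 20.2 and 20.2 CPM against 20.5 and 16.4 CPM (0.13, SE 0.36), *Ripk1*, its kinase partner, at 41.0 and 81.3 CPM against 43.3 and 54.1 CPM (0.33, SE 0.36), and *Traf2*, an adaptor of both receptors, at 26.7 and 40.7 CPM against 33.4 and 23.8 CPM (0.24, SE 0.36). All 3 overlapped between the sets. *Junb*, an AP-1 subunit, stood at 356 and 409 CPM against 347 and 311 CPM (0.22, SE 0.37). On all 4 plates *Adam17*, the sheddase that cleaves TNF and its receptors, was lower and *Map2k7* and *Fosl2* were higher, as many as 2.9% and 5.9% of the list beside 6.41% and 8.06% of all genes.

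A small group of the *Tnfrsf1a*-zero cells was unlike macrophages. Noticed after the fits, 8 of 120 (6.67%, 2.92% to 12.7%) held at least 100 CPM of *Ccr7*, the chemokine receptor that guides cells to lymph nodes, with under 100 CPM of *Csf1r*, the M-CSF receptor. Plates 2, 3, 4 and 5 gave 1, 0, 5 and 2 of them. Among the other kept TNF-treated cells there were 3 of 200 between the classes and 0 of 398 at 50 CPM or more of *Tnfrsf1a*, which allows a share of up to 0.754%, and none among 721 IL4+IL13 cells. Since *Csf1r* and *Tnfrsf1a* were read in the same cells, these counts describe the cells and give no test.

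Their other genes were as far apart. In these 8 cells *Ccr7* ranged from 345 to 9500 CPM and *Csf1r* from 4.49 to 42.2 CPM, where the other 112 *Tnfrsf1a*-zero cells had medians of 0 and 1150 CPM. *Aldh1a2*, which makes retinoic acid, *Ccl22*, a chemokine for T cells, and *Fscn1*, an actin bundler, had medians of 5340, 9070 and 310 CPM against 0 in the other 112. *Adgre1* (F4/80), *Cd68* and *Lyz2*, markers of macrophages, had medians of 4.09, 15.1 and 352 CPM against 577, 1310 and 18200 CPM. *Flt3* was found in 6 of the 8 cells, with a median of 2.33 CPM against 6.47 CPM in the other 112, and *Zbtb46* in 2 of the 8, while *Xcr1*, *Cd209a* and *Clec9a*, markers of dendritic cell subsets, were at 0 in all 8, and no cell type name is given to them. A further 3 *Tnfrsf1a*-zero cells had *Csf1r* under 100 CPM without *Ccr7*.

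**Figure D5:**
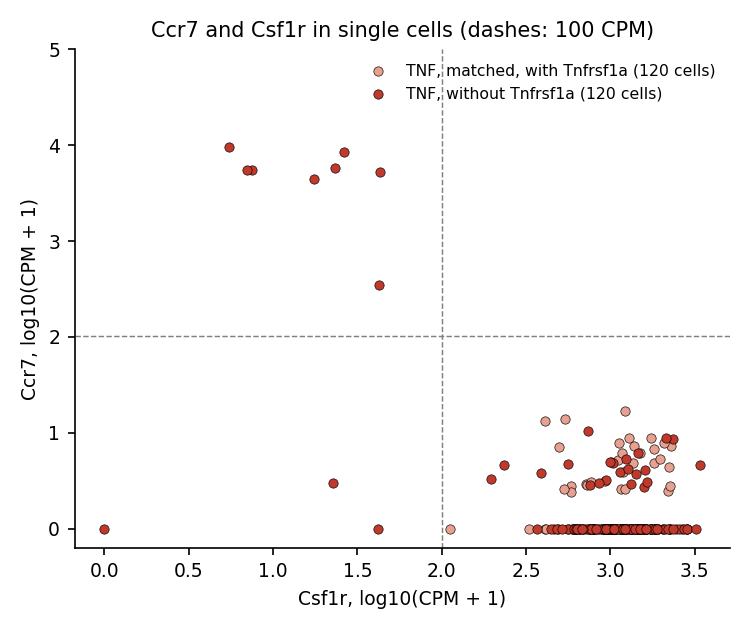
*Ccr7* (y axis) against *Csf1r* (x axis), both as log10(CPM + 1), in each of the 120 *Tnfrsf1a*-zero (dark) and 120 *Tnfrsf1a*-high (light) TNF-treated cells; dashes mark 100 CPM. The 8 cells at upper left are *Tnfrsf1a*-zero cells with *Ccr7* of 345 to 9500 CPM.

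Most of the genes that stood highest in *Tnfrsf1a*-zero cells moved when these 8 cells were left out. The 5 genes of smallest p that were higher on all 4 plates were *Cytip* (log2 difference 4.13, SE 0.67, unadjusted p 0.000573), *Tmsb4x*, *Mreg*, *Cd83* and *Arid4a*, all with an adjusted p of 1 (edgeR). Without the 8 cells and their partners, an alternative chosen after seeing the data, *Cytip* was at 1.87 (SE 0.41), *Tmsb4x*, an actin-binding peptide, went from 0.69 to 0.28, *Mreg* from 3.42 to 0.52 and *Cd83*, a marker of mature dendritic cells, from 2.50 to 0.40. *Arid4a*, a chromatin protein, stayed at 1.19 after 1.11, with 97.8 and 98.8 CPM in *Tnfrsf1a*-zero cells and 41.6 and 49.4 CPM in *Tnfrsf1a*-high cells. *Ccl17* and *Ccl22*, which are in the M2 list, were among the 5 M2 genes that were higher on all plates.

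*Clec4e* and *Sod2* kept their difference without these cells. *Clec4e* was at -1.69 (SE 0.80) and *Sod2* at -0.90 (SE 0.28), and the count of genes called was 0 with and without the mouse as a block. The median of the TNF-raised list went from -0.15 to -0.42, with 41 of 50 genes lower in place of 29. With the *Ccr7*-high cells kept, 48.4% of all genes were lower, and the share without them was not counted. *Ccl22*, in that list, had a median of 9070 CPM in the 8 cells and 0 in the other 112. The median cell held 25 TNF-raised genes in place of 25.5.

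The lowest genes by the same rule were *Trip13*, *1110051M20Rik*, *Oas3*, *Pard6a* and *Cd151*. *Trip13*, an ATPase of the spindle checkpoint, stood at 6.42 and 11.3 CPM against 37.1 and 26.4 CPM (-1.84, SE 0.47, unadjusted p 0.0065), and *Oas3*, an interferon-induced antiviral enzyme, at 81.5 and 99 CPM against 139 and 159 CPM (-0.72, SE 0.21, unadjusted p 0.0106). Neither overlapped between the sets. The others differed by -2.37 (*1110051M20Rik*), -1.34 (*Pard6a*, a polarity protein) and -0.94 (*Cd151*, a tetraspanin) on the log2 scale, and all 5 had an adjusted p of 1 (edgeR).

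Markers of the tissue and of other cell types were checked in both sets. All 10 macrophage markers were found in *Tnfrsf1a*-zero cells. There 9 of 10 were lower than in *Tnfrsf1a*-high cells, beside 48.4% of all genes, with a median log2 difference of -0.18. On all 4 plates 1 of 10 was lower, beside 6.41% of all genes. In IL4+IL13 cells 2 of 10 were lower without the receptor transcript, beside 47.5% of all genes. The summed level of the markers ran from 23400 to 30000 CPM over the plates against 31500 to 34700 CPM. Without the 8 *Ccr7*-high cells it ran from 23400 to 33200 CPM. The 6 dendritic markers summed to 7.75 to 737 CPM against 10.5 to 16.4 CPM, and to at most 23.4 CPM without those 8 cells. Summed neutrophil, mast cell or basophil, lymphocyte, fibroblast and erythroid markers each stayed at or below 6.62 CPM on each plate of *Tnfrsf1a*-zero cells, and 10 cycling genes summed to 297 to 702 CPM against 346 to 1110 CPM. The part of the lower macrophage markers in the values of *Clec4e* and *Sod2* was not tested, beyond the values without the 8 cells.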

How the data were processed

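Single-cell transcriptomes were deposited by the authors as 1 table of raw counts: read pairs (fragments) per gene and well, made by the authors with gsnap and featureCounts 1.6.3 on mm10 with Ensembl annotation, without strand and without molecular identifiers; the labels also name bcl2fastq 2.19.1 and Seurat 3. No count was normalized. The members, comparators and gene lists were chosen with earlier results of these data known. Of 1528 samples, 4 without a mouse number in their title were left out, and so were 8 columns matching no label and 3 of unassigned samples. Spike-in rows (92) entered neither depth nor tests. Doublets were not called, since wells were sorted singly.

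Counts were summed over cells per mouse and cell set (8 sums: TNF or IL4+IL13, without or with *Tnfrsf1a*) and tested with edgeR 4.0.16 (TMM, glmQLFTest, R 4.3.3) at an adjusted p of 0.05. A filter (detection in 5% or more of a set's cells, and edgeR's filterByExpr) kept 16579 genes, and *Tnfrsf1a* was left out of the tests. Pairs were matched within plate on log2 depth. Alternatives used DESeq2 1.42.0 and limma 3.58.1 (mean CPM, log2 with a pseudocount of 1); values by plate use a pseudocount of 0.5 CPM for direction. CPM is not per length, so levels of different genes are not compared. The mice pair the sums: deviations of sums of the same mouse correlated over genes by 0.163 to 0.215 in all 6 pairs of sets. The lists of TNF-raised and TNF-lowered genes took genes found in at least 25% of cells at 20 CPM or more and at least 2-fold changed in both mice, the first 50 by the smaller of the 2 changes. Named genes were a written list of receptors, signalling genes, inflammatory targets and M2 genes, 5 genes in each direction by smallest p with the same direction on 4 plates, and the first 5 of both lists. κB and AP-1 motifs were searched on both strands, and overlapping matches were all counted. The test was tried on simulated counts first. A dispersion of 0.127, estimated from genes with many fragments in these sums, was given to all genes, and changes were planted only in such genes. At this dispersion edgeR recovered 0 and DESeq2 9 of 100 genes changed 2-fold. Of 100 genes changed 4-fold they recovered 43 and 76, with 1 and 20 false calls.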

Additional observations from a re-analysis of the deposited data

How the results depend on the processing

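Alternatives moved the counts of genes called. Between *Tnfrsf1a*-zero and *Tnfrsf1a*-high cells, 0 genes became 2 with the mouse as a replicate block, 32 with DESeq2, 65 with no filter on low genes, 1 with sums per plate and the plate as a block, and 4 with the block and matching on the number of genes. Between the same classes of IL4+IL13 cells, DESeq2 called 117 and no filter 97. For the interaction the counts were 41 with DESeq2, 187 with no filter and 1 with the plate as a block. For the TNF effect in *Tnfrsf1a*-zero cells they were 2 with the mouse as a block, 378 with DESeq2, 448 with no filter, 192 with the plate as a block, and 4 with the mouse block and matching on genes. For the TNF effect in *Tnfrsf1a*-high cells they were 357 with DESeq2, 385 with no filter, 266 with the plate as a block, 3 with the mouse block and without the *Ccr7*-high cells, and 0 to 1 when each sum was left out in turn; the 1 came without the sum of IL4+IL13 *Tnfrsf1a*-zero cells of mouse 1 or of mouse 2. Plates of 1 mouse are not separate animals. The cause of these changes was not tested. The mouse block changed no other call.

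The median log2 difference of the TNF-raised list, -0.15, was -0.28 with the mouse as a replicate block, -0.13 with total fragments, -0.16 with DESeq2 and with no filter, -0.19 with unmatched comparators, -0.09 with matching on genes, -0.15 with that and the block or with matching on spike-in content, -0.21 with thinning, -0.17 with limma, -0.28 with the plate as a block, -0.02 in cells of 400000 fragments or more, -0.22 with comparators at 100 CPM or more, -0.42 without the *Ccr7*-high cells and -0.47 with that and the block; leaving out each sum in turn gave -0.31 to -0.06. For the TNF-lowered list, 0.13, it was -0.06 with matching on genes, -0.07 with that and the block, 0.22 without the *Ccr7*-high cells and -0.26 to 0.30 with a sum left out, negative without *Tnfrsf1a*-zero cells of mouse 2 (-0.26) or *Tnfrsf1a*-high cells of mouse 1 (-0.04). The M2 list, 0.17, was 0.46 with the plate as a block. The inflammatory targets, -0.02, were -0.22 with limma, -0.24 with the plate as a block, -0.22 with matching on spike-in content, -0.29 without the *Ccr7*-high cells, -0.39 with that and the block, and -0.37 to 0.11 with a sum left out, lowest without *Tnfrsf1a*-zero cells of mouse 2.

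*Clec4e* stayed below 0 in 24 of 24 alternatives, from -2.02 to -1.41, and was called in 1, with no filter (adjusted p 2.29e-06, edgeR; range up to 1). *Sod2* stayed below 0 in 24 of 24, from -1.21 to -0.74, and was called in none (adjusted p 0.206 to 1). Over 39 named genes and 936 values, 920 kept their direction and side of the threshold or changed sign within 1 SE of 0 in both fits (55 values), 9 passed the threshold and 7 reversed by more than that. With a sum left out, *Tnf* ranged from -3.18 to 2.23, *Il1b* from -8.66 to 8.09, *Il10* from -7.37 to 6.99, *Hmga2* from -0.07 to 1.41 and *Lifr* from -1.52 to 1.47; *Ccl5* was at -1.67 without the *Ccr7*-high cells and *Il10* at 3.12 in cells of 400000 fragments or more. The share of cells at 0 *Tnfrsf1a* with and without TNF was 21.5% and 16.9% at 200000 fragments, 16.7% and 10.8% without thinning, and 17.7% and 14% at 400000 fragments. Matching on spike-in content, leaving out the *Ccr7*-high cells and the block with matching on genes were chosen after seeing the data.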
